A study of Homo sapiens with 6 samples.

Results

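The mRNAs of the splicing machinery were followed in L428, an established Hodgkin lymphoma cell line, after an inhibitor of the microRNA miR-9 was transfected. The members are the genes whose single platform symbol begins with HNRNP, SRSF plus a digit, SF3A or SF3B plus a digit, PRPF plus a digit, or SNRP. HNRNPD was left out by this rule, and no measured value was used to choose a member. The rule gave 63 genes of the 19775 with a single symbol on the array. They comprised 20 hnRNP symbols, 10 SR proteins, 9 subunits of SF3A and SF3B, 11 PRPF proteins and 13 snRNP polypeptides. Of these, 60 were bright enough to be tested among 12367 genes. Not bright enough at their single-symbol probe sets were SRSF12, the imprinted snRNP gene SNRPN (read at 1 probe set) and the pseudogene HNRNPA3P1. Of the tested members 2, HNRNPD-DT and SNRPF-DT, are divergent noncoding transcripts. Genes such as HNRNPA1 share near-identical copies, and 25 probe sets that carry a member's symbol beside others were not used for naming.

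Both groups were L428 cells transfected by nucleofection, 3 samples receiving an inhibitor of miR-9 made of locked nucleic acid (LNA) and 3 receiving a scrambled LNA, and the labels give the time as 9 h. These were the 2 groups analysed, so every value below compares one LNA with another in nucleofected cells of a single line. The labels number the samples 1 to 3 in each group without stating separate cultures, and p-values measure the spread between these samples, which may be technical. How far miR-9 itself was inhibited was not analysed here. Levels are the deposited log2 expression values of the brightest probe set of each gene, and differences are the miR-9 LNA mean minus the scrambled LNA mean on the log2 scale, with limma standard errors and n = 3 arrays per group. In bulk RNA, fewer cells of a kind and less RNA per cell cannot be told apart.

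Splicing removes introns from pre-mRNA in the spliceosome, which assembles from small nuclear ribonucleoproteins (snRNPs), each a small nuclear RNA with a ring of Sm proteins and its own partner proteins. SF3A and SF3B are parts of the U2 snRNP and hold the branch point of the intron. Several PRPF proteins build the U4/U6.U5 particle and its catalytic core, whereas others partner the U1 particle or act at later steps. SR proteins bind exons through RNA recognition motifs and recruit the machinery through stretches rich in arginine and serine. The hnRNP proteins coat nascent transcripts and often oppose SR proteins at exons, and several also act in mRNA export, stability and translation. Many of these genes control their own mRNA through alternative exons, so that a single probe set reads some of their transcripts and misses others.

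The targeted microRNA is made from 3 hairpin genes, whose RefSeq entries (GRCh38.p14) give the same mature strands. The miR-9-5p strand lies at chr1:156420392-156420414 (MIR9-1, minus strand), chr5:88666902-88666924 (MIR9-2, minus strand), chr15:89368032-89368054 (MIR9-3, plus strand). The strands are shown because the seed, bases 2 to 8 in capitals, is the part by which a microRNA pairs with its target mRNAs. The labels give no sequence for either LNA, and the sites of the members' mRNAs that could pair with these seeds were not analysed here.
hsa-miR-9-5p: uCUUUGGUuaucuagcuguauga
hsa-miR-9-3p: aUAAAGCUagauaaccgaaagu

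One array stood apart. Scrambled replicate 1 had the lowest 90th percentile of expression, 9.29 against 9.46 to 9.58 on the other 5 arrays, and the highest signal of the spike-in dap, 10.05 against 7.97 to 8.55. It held the lowest of the 6 values for 44 of 60 tested members (73.3%), for 41.5% of tested genes and for 75.7% of the brightest 20% of them. Results are therefore also given without it. Its part in the differences was not tested. The Hodgkin markers CCL17, FSCN1, IRF4 and TNFRSF8 (CD30) were at 12.70, 11.71, 11.69 and 10.51 on average, and all 10 markers of that list were tested. Of markers of T and NK cells, myeloid cells, and fibroblasts and endothelium, 3 of 11, 1 of 7 and 7 of 10 passed the level filter, with COL1A1 highest at 8.16. The B lineage markers measured lay between 6.73 (MS4A1, CD20) and 7.44 (PAX5), around the level filter of 7.11.

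Splicing genes lay mostly higher with the miR-9 LNA, by little, and no member passed the threshold. Of 60 tested members, 55 lay higher (91.7%) and 5 lower, where 70% of all tested genes and 96.5% of the brightest 20% lay higher. The members' median log2 difference was 0.17, with a range from -0.092 (SF3B4) to 0.40 (PRPF4). The corresponding fold changes run from 0.938 to 1.32. PRPF4, SRSF5, HNRNPA3, HNRNPA0 and HNRNPDL had the largest positive differences, and SF3B4, SNRPF-DT and SNRPB the largest negative ones. At a limma adjusted p under 0.05, 0 of 60 members passed, where 0% of all tested genes did. The lowest adjusted p among members was 0.296. At an unadjusted limma p under 0.05, 20 of 60 members (33.3%) lay higher and 0 lower, against 17.4% of all tested genes higher and 0.598% lower. Of the brightest 20% of tested genes 33.3% lay higher at that p. The members' count was 10 of 60 without miR-9 LNA replicate 1 and 12 of 60 without miR-9 LNA replicate 2. There 9.45% and 12.3% of all tested genes lay higher at that p. The 3 miR-9 LNA arrays lay above the 3 scrambled arrays for 22 of 60 members and below them for 0. Of all 12367 tested genes 2720 lay above (22%) and 474 below (3.83%), and of the brightest 2474 genes 915 lay above. For any single gene a two-sided exact permutation test of 3 against 3 arrays cannot give a p below 0.1.

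The members are bright mRNAs, and bright genes as a whole lay higher with the miR-9 LNA. By probe signal, 42 of the 60 fell among the brightest 20% of tested genes. All tested genes had a median difference of 0.083, with 8661 higher and 3706 lower. In the brightest 20% the 42 members had a median of 0.18 and the other 2432 genes one of 0.20. There, 16 of 42 members (38.1%) and 33.3% of the other genes lay higher at an unadjusted limma p under 0.05. In the next brightest level bin, 13 members had a median of 0.19 where all genes of that bin had 0.17. The miR-9 LNA arrays lay wholly above the scrambled arrays for 17 of the 42 members and for 898 of the other 2432 genes. In the brightest 20% the members' median and counts were thus near those of the other genes. The members were the brighter there, with a median level of 11.80 against 10.87, so the match in probe signal was coarse. After quantile normalization, which gives all 6 arrays the same distribution, 32 members lay higher and 28 lower, with a median of 0.016 against -0.00050 for all tested genes. Then 0 members passed, where 0% of all genes did, and 1 member (PRPF4) lay higher and 0 lower at an unadjusted limma p under 0.05, against 1.92% and 2.34% of all genes. Without scrambled replicate 1, 56 of 60 members lay higher, with a median of 0.12, and 15 lay higher at an unadjusted limma p under 0.05. Of all tested genes 70% then lay higher and 12.9% did so at that p, and of the brightest 20% 88.8% and 22.8%, with medians of 0.057 and 0.13. The differences of 28 of the 60 members moved toward 0 by over 1.5 times without that array, 3 moved away from 0 by as much and 3 turned sign.

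**Figure D1:**
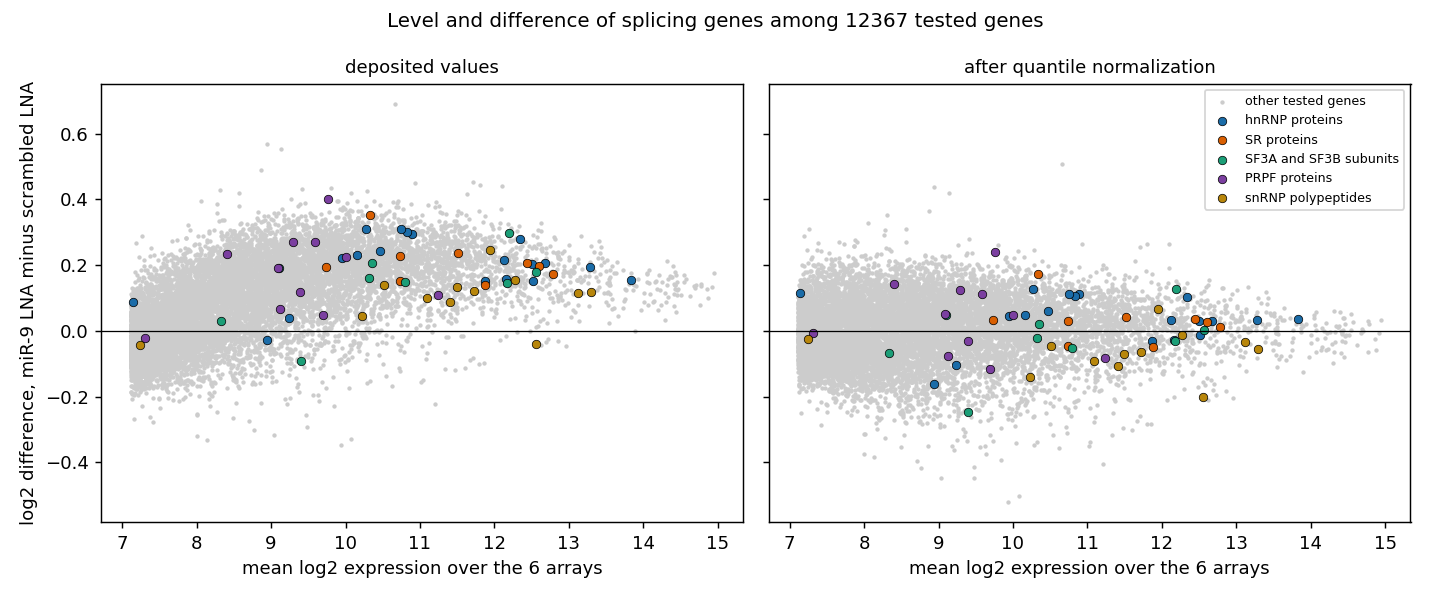
Mean log2 expression over the 6 arrays (x) against the log2 difference, miR-9 LNA minus scrambled LNA (y), for 12367 tested genes in grey and the 60 tested members in colour by subgroup, in deposited values (left) and after quantile normalization (right). In deposited values bright genes lie above 0 and the members lie among them, with PRPF4 at 0.40 at the upper edge; after quantile normalization the members scatter around 0.

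The 250 bases before the annotated start were read for 55 of the 60 tested members from RefSeq promoters (GRCh38.p14). They were searched on both strands for 7 motifs, chosen after the expression values were seen. The ETS site CCGGAAG was present before 19 of 55 members (34.5%), against 8.82% of 27305 promoters in all, 15.8% of those of tested genes and 21.1% of those of the brightest 20%. It stood before 7 snRNP polypeptide genes and 6 genes of SF3A and SF3B, and before 2 genes each of the hnRNP, SR and PRPF subgroups. The CCAAT box, written CCAAT, was found before 26 members (47.3%, against 33% of all promoters and 38.1% of the brightest 20%), and the GC box GGGCGG before 31 (56.4%, against 42.3% and 68.1%). The TATA box TATAAA was found before 5 members (9.09%, against 11.1% of all promoters and 6.47% of the brightest 20%), the E box CACGTG before 5 (9.09% against 6.49% and 9.84%), the NRF1 motif GCGCATGC before 2 (3.64% against 2.81% and 5.37%) and the cyclic AMP response element TGACGTCA before 0, against 1.77% and 3.38%. Matches are descriptions of letters and were not tested. The 250 bases are shown for the member of smallest p in each subgroup, with every match to the 7 motifs in capitals: HNRNPU at chr1:244864544-244864793 (minus strand), SRSF5 at chr14:69766892-69767141 (plus strand), SF3B1 at chr2:197435029-197435278 (minus strand), PRPF4 at chr9:113275408-113275657 (plus strand) and SNRPD3 at chr22:24555400-24555649 (plus strand). HNRNPU has CCAAT and GC boxes, SRSF5 an ETS site, SF3B1 an E box, and PRPF4 and SNRPD3 a GC box.
HNRNPU: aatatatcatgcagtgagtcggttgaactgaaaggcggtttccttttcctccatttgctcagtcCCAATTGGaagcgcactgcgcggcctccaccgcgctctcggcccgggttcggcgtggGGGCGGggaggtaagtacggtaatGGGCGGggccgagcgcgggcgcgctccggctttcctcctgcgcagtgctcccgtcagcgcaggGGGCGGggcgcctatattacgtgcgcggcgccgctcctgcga
SRSF5: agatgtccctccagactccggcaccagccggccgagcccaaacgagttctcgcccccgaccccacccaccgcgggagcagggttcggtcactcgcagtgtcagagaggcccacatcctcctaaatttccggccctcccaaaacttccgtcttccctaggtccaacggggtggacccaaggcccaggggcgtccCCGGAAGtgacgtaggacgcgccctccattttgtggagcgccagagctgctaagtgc
SF3B1: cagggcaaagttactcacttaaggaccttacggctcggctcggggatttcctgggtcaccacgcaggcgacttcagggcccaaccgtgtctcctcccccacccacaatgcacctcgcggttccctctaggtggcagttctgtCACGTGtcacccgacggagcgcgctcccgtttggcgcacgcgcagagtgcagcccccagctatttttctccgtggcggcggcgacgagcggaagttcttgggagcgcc
PRPF4: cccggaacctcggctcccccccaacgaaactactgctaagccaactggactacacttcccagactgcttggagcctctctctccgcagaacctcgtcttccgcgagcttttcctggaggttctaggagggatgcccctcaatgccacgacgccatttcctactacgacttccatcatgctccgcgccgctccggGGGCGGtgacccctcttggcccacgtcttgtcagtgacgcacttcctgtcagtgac
SNRPD3: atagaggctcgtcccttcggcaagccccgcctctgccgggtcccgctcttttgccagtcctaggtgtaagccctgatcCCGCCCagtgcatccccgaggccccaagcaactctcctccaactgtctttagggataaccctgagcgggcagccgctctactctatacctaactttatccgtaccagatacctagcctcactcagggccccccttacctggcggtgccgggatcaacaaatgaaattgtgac

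The hnRNP genes lay higher in 18 of 19 tested symbols, with a median difference of 0.21 and 8 at an unadjusted limma p under 0.05. For comparison, 96.5% of the brightest 20% of tested genes lay higher, with a median of 0.20 and 33.3% at that p. Of all tested genes 70% lay higher, and 17.4% did so at that p. HNRNPU, which binds RNA and chromatin in the nuclear scaffold, had the smallest p of the subgroup. It was at 12.23, 12.27 and 12.20 on miR-9 LNA arrays 1, 2 and 3 and at 11.97, 12.02 and 12.06 on scrambled arrays 1, 2 and 3. The groups of HNRNPU arrays did not overlap and each was narrow, with a difference of 0.22 ± 0.058 (limma adjusted p = 0.296). HNRNPA3, a member of the A/B type that coats nascent RNA, was at 10.46, 10.52 and 10.29 on miR-9 LNA arrays 1, 2 and 3 and at 10.00, 10.23 and 10.12 on scrambled arrays 1, 2 and 3. The HNRNPA3 arrays did not overlap either, and its difference was 0.31 ± 0.087 (limma adjusted p = 0.296). HNRNPA0, a relative that binds AU-rich mRNAs, was at 10.99, 10.83 and 10.90 on miR-9 LNA arrays 1, 2 and 3 and at 10.40, 10.63 and 10.75 on scrambled arrays 1, 2 and 3, a difference of 0.31 ± 0.098 (limma adjusted p = 0.296). Scrambled array 1 was the lowest for HNRNPA0, and without it the difference was 0.21. HNRNPA1, the best known antagonist of SR proteins, HNRNPH3 and HNRNPLL, which regulates CD45 splicing in lymphocytes, differed by 0.28 ± 0.11, 0.29 ± 0.096 and 0.23 ± 0.089, with no overlap of the arrays, and by 0.17, 0.19 and 0.15 without scrambled array 1.

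HNRNPDL, which resembles the AU-rich element binding hnRNPs, had a large difference and a large spread. It was at 11.41, 10.94 and 10.59 on miR-9 LNA arrays 1, 2 and 3 and at 10.71, 10.88 and 10.45 on scrambled arrays 1, 2 and 3. HNRNPDL was higher in each same-numbered pair while the groups overlapped, and its difference of 0.30 ± 0.20 had a limma adjusted p of 0.5. HNRNPH1, which binds runs of guanine and had the highest probe signal of the members, was at 13.90, 13.97 and 13.85 on miR-9 LNA arrays 1, 2 and 3 and at 13.57, 13.84 and 13.84 on scrambled arrays 1, 2 and 3. The HNRNPH1 groups were separate but nearly touched, and its difference was 0.16 ± 0.088 (limma adjusted p = 0.438), or 0.066 without scrambled array 1. The bright genes HNRNPK, HNRNPC, HNRNPA2B1, HNRNPAB, HNRNPM and HNRNPR differed by 0.15 to 0.21, and HNRNPF and HNRNPUL2 by 0.24 and 0.22. Without scrambled array 1, HNRNPK, HNRNPC, HNRNPAB and HNRNPF differed by 0.067, 0.057, 0.089 and 0.15. After quantile normalization HNRNPC, HNRNPM and HNRNPR turned to -0.013, -0.032 and -0.026. HNRNPUL1, a relative of HNRNPU, was the member on the lower side, at 8.94, 8.96 and 8.87 on miR-9 LNA arrays 1, 2 and 3 and at 9.05, 8.92 and 8.89 on scrambled arrays 1, 2 and 3. The HNRNPUL1 groups overlapped, with a difference of -0.029 ± 0.067 (limma adjusted p = 0.85) that turned to 0.018 without scrambled replicate 1. HNRNPL, which binds CA-rich RNA, differed by 0.038 ± 0.10, and by -0.050 without scrambled array 1. After quantile normalization 14 of 19 hnRNP symbols lay higher, with a median of 0.037, and the differences of HNRNPU, HNRNPA3 and HNRNPA0 were 0.033, 0.13 and 0.11.

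All 9 tested SR protein genes lay higher with the miR-9 LNA, with a median of 0.20 and 3 at an unadjusted limma p under 0.05. The brightest 20% of tested genes had the same median of 0.20, with 96.5% higher and 33.3% higher at that p. SRSF5, which promotes exon inclusion, led the SR genes. It was at 10.41, 10.72 and 10.41 on miR-9 LNA arrays 1, 2 and 3 and at 10.02, 10.16 and 10.29 on scrambled arrays 1, 2 and 3. SRSF5 was highest on miR-9 LNA array 2, and its groups did not overlap, with a difference of 0.35 ± 0.11 (limma adjusted p = 0.296), or 0.17 after quantile normalization. SRSF4, a larger SR protein of the same branch, was at 10.91, 10.77 and 10.87 on miR-9 LNA arrays 1, 2 and 3 and at 10.52, 10.62 and 10.71 on scrambled arrays 1, 2 and 3, a difference of 0.23 ± 0.073 (limma adjusted p = 0.296). SRSF8, an expressed retrocopy related to SRSF2, was at 10.81, 10.79 and 10.84 on miR-9 LNA arrays 1, 2 and 3 and at 10.58, 10.64 and 10.75 on scrambled arrays 1, 2 and 3. The arrays of SRSF4 and SRSF8 did not overlap, and the SRSF8 difference was 0.15 ± 0.065 (limma adjusted p = 0.346). SRSF8 turned to -0.047 after quantile normalization. SRSF3, the SR gene of highest probe signal, whose protein also helps mRNA export, was at 12.86, 12.92 and 12.83 on miR-9 LNA arrays 1, 2 and 3 and at 12.43, 12.81 and 12.85 on scrambled arrays 1, 2 and 3. Scrambled array 1 of SRSF3 lay far below the other 5, which were close together, and the difference of 0.17 ± 0.11 (limma adjusted p = 0.49) was 0.040 without it. SRSF7, a zinc knuckle SR protein, had the same shape, with 0.21 ± 0.14 on all arrays and 0.043 without scrambled array 1. SRSF1, the founding member of the family, SRSF6, SRSF10 and SRSF11 differed by 0.20, 0.19, 0.24 and 0.14, with SRSF1 at 0.088 and SRSF10 at 0.13 without scrambled array 1. After quantile normalization 7 of 9 lay higher, with a median of 0.029.

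Of the SF3A and SF3B subunits, 8 of 9 lay higher, with a median of 0.16 and 4 at an unadjusted limma p under 0.05. Among the brightest 20% of tested genes 96.5% lay higher, with a median of 0.20 and 33.3% at that p. SF3B1, which clamps the branch point and is mutated in several blood cancers, was at 12.44, 12.40 and 12.19 on miR-9 LNA arrays 1, 2 and 3 and at 11.93, 12.20 and 12.01 on scrambled arrays 1, 2 and 3. The SF3B1 groups overlapped narrowly at miR-9 LNA array 3 and scrambled array 2, with a difference of 0.30 ± 0.097 (limma adjusted p = 0.296). SF3B2, which contacts the pre-mRNA beside the branch point, was at 10.54, 10.44 and 10.39 on miR-9 LNA arrays 1, 2 and 3 and at 10.28, 10.28 and 10.18 on scrambled arrays 1, 2 and 3. SF3A1, which ends in a ubiquitin-like domain, was at 10.35, 10.46 and 10.40 on miR-9 LNA arrays 1, 2 and 3 and at 10.24, 10.28 and 10.21 on scrambled arrays 1, 2 and 3. Both SF3B2 and SF3A1 had separate groups, and scrambled array 1 was not their lowest array. Their differences were 0.21 ± 0.067 and 0.16 ± 0.060 (limma adjusted p = 0.296 and 0.318), or 0.22 and 0.16 without scrambled array 1. After quantile normalization SF3B2 differed by 0.021 and SF3A1 turned to -0.023. SF3B3 and SF3A3 also had separate groups, with differences of 0.15 ± 0.058 and 0.19 ± 0.083. SF3B5, a small subunit and the one of highest probe signal, was at 12.86, 12.50 and 12.59 on miR-9 LNA arrays 1, 2 and 3 and at 12.32, 12.48 and 12.61 on scrambled arrays 1, 2 and 3, a difference of 0.18 ± 0.11 (limma adjusted p = 0.476), or 0.10 without scrambled array 1. SF3B4, an RNA recognition motif subunit, lay on the lower side, at 9.37, 9.43 and 9.26 on miR-9 LNA arrays 1, 2 and 3 and at 9.61, 9.42 and 9.30 on scrambled arrays 1, 2 and 3. Scrambled array 1 was the highest for SF3B4, whose difference of -0.092 ± 0.093 (limma adjusted p = 0.647) shrank to -0.0082 without it. SF3B6 and SF3A2 differed by 0.15 ± 0.13 and 0.029 ± 0.17. Without scrambled array 1, which was the highest for SF3A2 and the lowest for SF3B6, SF3B6 differed by 0.011 and SF3A2 by 0.23. After quantile normalization 4 of 9 lay higher and 5 lower.

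Of the PRPF genes, 10 of 11 lay higher, with a median of 0.19 and 4 at an unadjusted limma p under 0.05. Among the brightest 20% of tested genes 96.5% lay higher, with a median of 0.20 and 33.3% at that p. Among all tested genes 70% lay higher, with a median of 0.083 and 17.4% at that p. PRPF4, a WD repeat protein of the U4/U6 particle, had the smallest p of all members and ranked 5 among 12367 tested genes. It was at 9.91, 9.93 and 10.06 on miR-9 LNA arrays 1, 2 and 3 and at 9.57, 9.51 and 9.60 on scrambled arrays 1, 2 and 3. The lowest PRPF4 miR-9 LNA array lay well above the highest scrambled array, and scrambled array 1 lay between the other scrambled arrays. The PRPF4 means were 9.97 ± 0.080 on the miR-9 LNA arrays and 9.56 ± 0.045 on the scrambled arrays (SD, n = 3 each), a difference of 0.40 ± 0.066 (limma adjusted p = 0.296), or 1.32-fold. The PRPF4 difference was 0.24 after quantile normalization (limma adjusted p = 0.899) and 0.41 without scrambled array 1. PRPF3, its direct partner in the U4/U6 particle, was at 9.16, 9.16 and 9.23 on miR-9 LNA arrays 1, 2 and 3 and at 8.92, 9.02 and 9.04 on scrambled arrays 1, 2 and 3, a difference of 0.19 ± 0.062 (limma adjusted p = 0.296). PRPF38B was at 9.70, 9.64 and 9.82 on miR-9 LNA arrays 1, 2 and 3 and at 9.36, 9.49 and 9.50 on scrambled arrays 1, 2 and 3. PRPF3 and PRPF38B had separate groups with scrambled array 1 lowest, and PRPF38B differed by 0.27 ± 0.073 (limma adjusted p = 0.296), or 0.11 after quantile normalization. PRPF38A, a tri-snRNP protein needed for activation, PRPF18, a factor of the later splicing step, and PRPF39, a U1 partner, differed by 0.22 ± 0.084, 0.27 ± 0.12 and 0.23 ± 0.11. The last 2 were at 0.14 and 0.12 without scrambled array 1.

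The other PRPF genes had smaller differences. PRPF8, which holds the catalytic RNA and had the highest probe signal of the PRPF genes, was at 11.24, 11.32 and 11.33 on miR-9 LNA arrays 1, 2 and 3 and at 11.27, 11.16 and 11.13 on scrambled arrays 1, 2 and 3. The PRPF8 groups overlapped, with a difference of 0.11 ± 0.065 (limma adjusted p = 0.452), and after quantile normalization it turned to -0.081. PRPF6, which bridges the particles of the tri-snRNP, PRPF19, a ubiquitin ligase of the active spliceosome, and PRPF31, which is mutated in inherited retinitis pigmentosa, differed by 0.12 ± 0.073, 0.066 ± 0.074 and 0.049 ± 0.062, and without scrambled array 1 PRPF19 was at 0.0073 and PRPF31 at 0.0068. PRPF40B, a U1-associated protein that was dim here, was at 7.27, 7.31 and 7.31 on miR-9 LNA arrays 1, 2 and 3 and at 7.35, 7.32 and 7.28 on scrambled arrays 1, 2 and 3, a difference of -0.022 ± 0.056 (limma adjusted p = 0.864), or -0.0041 without scrambled array 1. After quantile normalization 6 of 11 PRPF genes lay higher and 5 lower, with a median of 0.049.

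The snRNP polypeptides lay higher by less, 10 of 12 with a median of 0.12, against 0.17 for all members. One of them, SNRPD3, had an unadjusted limma p under 0.05, and no member of this subgroup had separate groups of arrays. Among the brightest 20% of tested genes 96.5% lay higher, with a median of 0.20 and 33.3% at that p. SNRPD3, an Sm ring protein, was at 12.25, 12.10 and 11.86 on miR-9 LNA arrays 1, 2 and 3 and at 11.77, 11.90 and 11.80 on scrambled arrays 1, 2 and 3. Its arrays overlapped at miR-9 LNA array 3, with a difference of 0.25 ± 0.10 (limma adjusted p = 0.342). SNRPD2, another ring protein and the snRNP gene of highest probe signal, was at 13.60, 13.18 and 13.26 on miR-9 LNA arrays 1, 2 and 3 and at 13.06, 13.30 and 13.33 on scrambled arrays 1, 2 and 3. For SNRPD2 miR-9 LNA array 1 was high, scrambled array 1 was low and the other 4 arrays were mixed, with a difference of 0.12 ± 0.13 (limma adjusted p = 0.667) that was 0.032 without scrambled array 1. The Sm genes SNRPE, SNRPF and SNRPG showed the same order, with the highest value on miR-9 LNA array 1 and the lowest on scrambled array 1, and differences of 0.16 ± 0.12, 0.089 ± 0.088 and 0.11 ± 0.12. SNRPD1 differed by 0.12 ± 0.081. Without scrambled array 1, SNRPE, SNRPF, SNRPG and SNRPD1 were at 0.061, 0.017, 0.017 and 0.047. SNRPB, an Sm protein known as a lupus autoantigen, was at 12.59, 12.30 and 12.71 on miR-9 LNA arrays 1, 2 and 3 and at 12.30, 12.62 and 12.81 on scrambled arrays 1, 2 and 3. The SNRPB arrays overlapped fully, with a difference of -0.040 ± 0.15 (limma adjusted p = 0.911), or -0.20 after quantile normalization and -0.18 without scrambled array 1.

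Partner proteins of single particles also had small differences. SNRPC, which helps the U1 particle find the start of an intron, was at 10.68, 10.51 and 10.58 on miR-9 LNA arrays 1, 2 and 3 and at 10.34, 10.51 and 10.49 on scrambled arrays 1, 2 and 3, a difference of 0.14 ± 0.075 (limma adjusted p = 0.413), or 0.089 without scrambled array 1. SNRPA1 of the U2 particle was at 11.64, 11.62 and 11.42 on miR-9 LNA arrays 1, 2 and 3 and at 11.35, 11.56 and 11.38 on scrambled arrays 1, 2 and 3, a difference of 0.13 ± 0.089 (limma adjusted p = 0.494). SNRPA of U1 and SNRPB2 of U2 differed by 0.044 ± 0.11 and 0.10 ± 0.12, and by 0.10 and 0.031 without scrambled array 1, and the groups overlapped for all 4 genes. After quantile normalization 1 of 12 tested snRNP symbols (SNRPD3) lay higher and 11 lower, with a median of -0.059, where the brightest 20% of genes had a median of 0.013. SNRPC, SNRPA1 and SNRPD2 turned to -0.047, -0.069 and -0.055 there. Whether this subgroup differed from the other splicing genes was not tested.

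The noncoding members were dim. SNRPF-DT, transcribed away from SNRPF, was at 7.27, 7.21 and 7.17 on miR-9 LNA arrays 1, 2 and 3 and at 7.35, 7.25 and 7.19 on scrambled arrays 1, 2 and 3. SNRPF-DT was lower with the miR-9 LNA in each pair while the groups overlapped, with a difference of -0.043 ± 0.067 (limma adjusted p = 0.775), and without scrambled array 1 it was 0.0001. HNRNPD-DT, near the level filter, differed by 0.087 ± 0.061, or 0.050 without scrambled array 1. The untested HNRNPA3P1, SRSF12 and SNRPN had levels of 6.65, 6.76 and 6.46 and differences of 0.090, 0.025 and -0.029 at their brightest single-symbol probe sets.

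**Figure D2:**
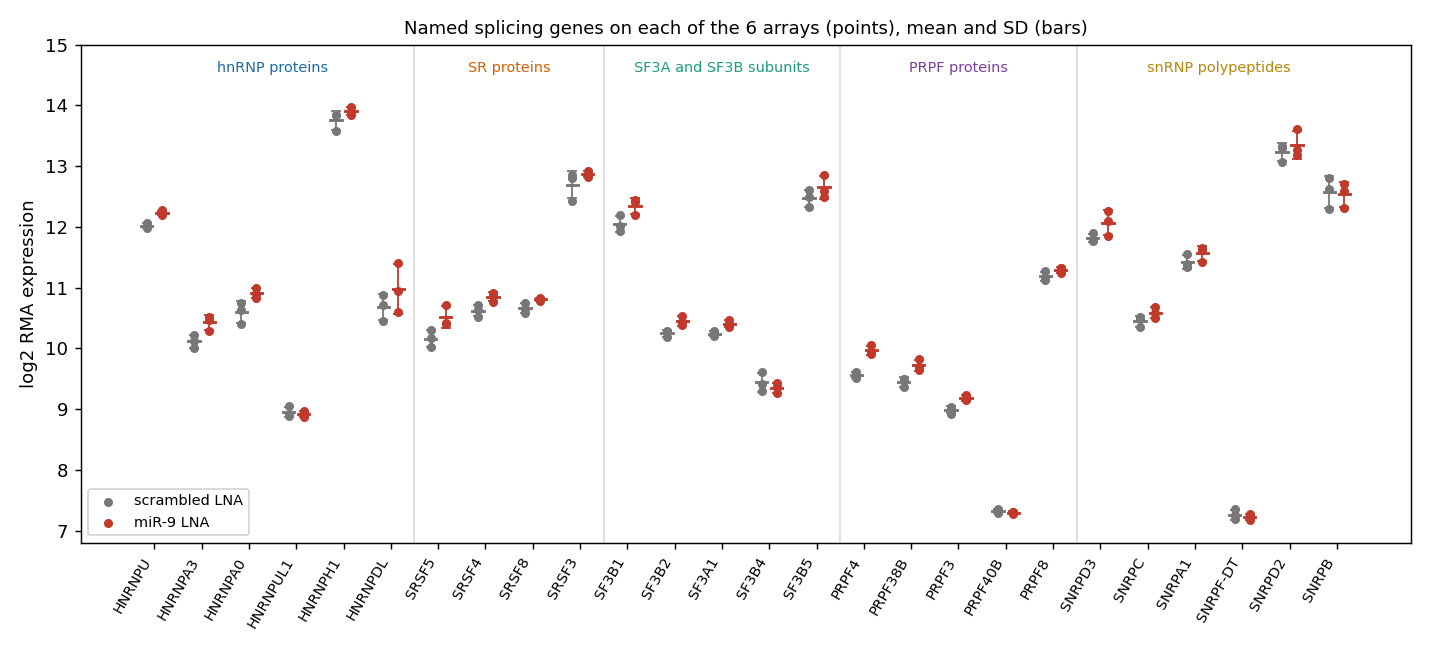
Log2 RMA expression (y) of the 26 members named by rule (x), on the 3 scrambled LNA arrays (grey points) and the 3 miR-9 LNA arrays (red points), with group means and SD. PRPF4, HNRNPU and SRSF5 show separate groups, whereas the arrays of SF3B4, PRPF8 and SNRPD2 overlap.

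**Figure D3:**
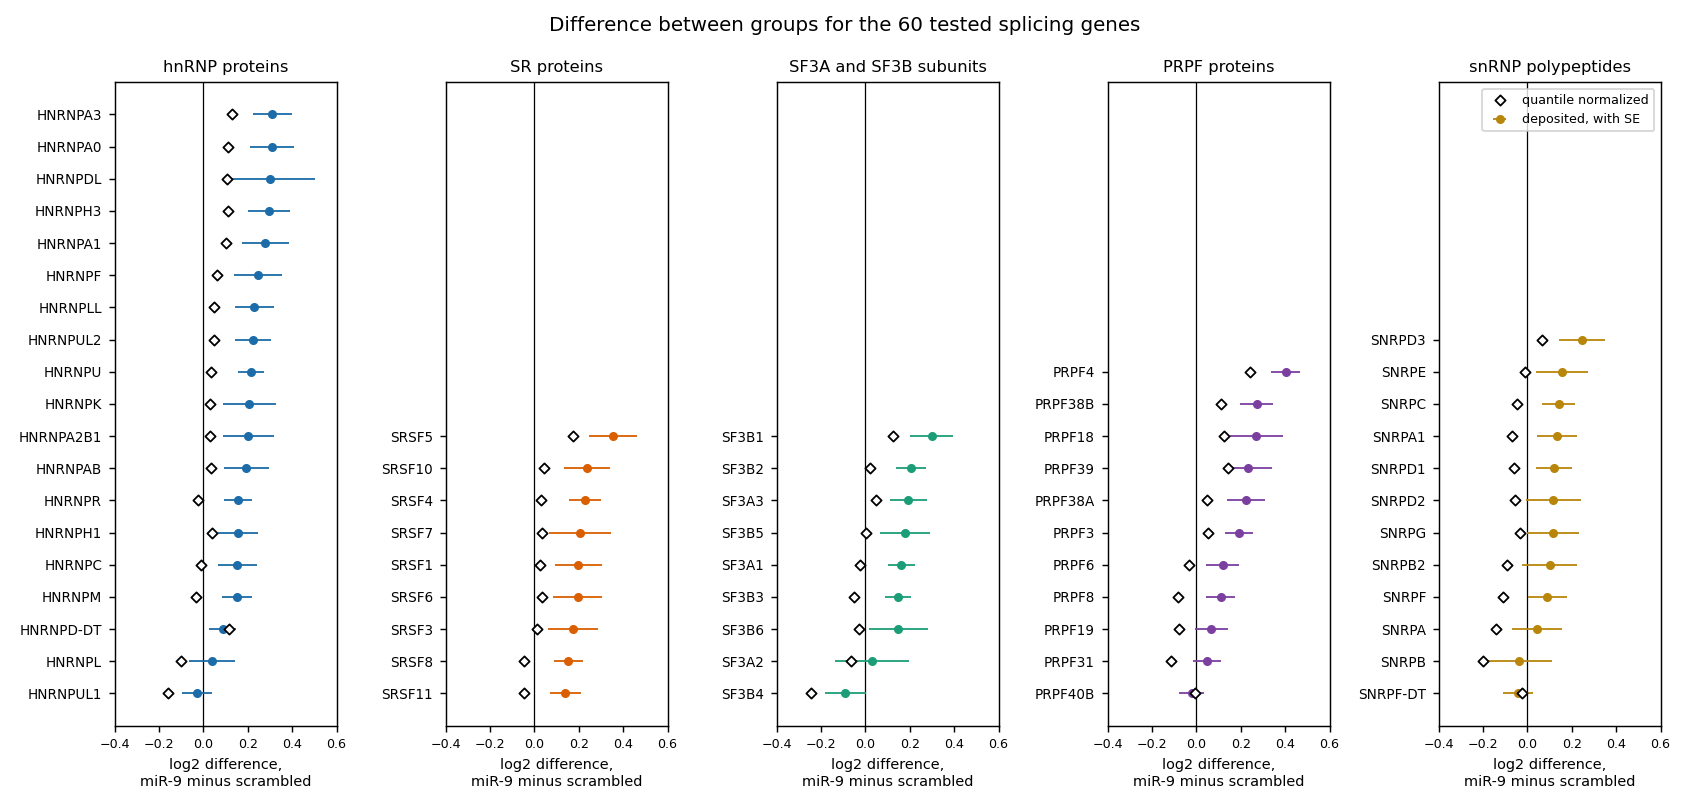
Log2 difference, miR-9 LNA minus scrambled LNA (x), of each of the 60 tested members (y) by subgroup, in deposited values with limma standard errors (filled circles) and after quantile normalization (open diamonds). In deposited values 55 of 60 lie above 0; after quantile normalization 32 do, and 11 of 12 snRNP symbols lie below 0.

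Set side by side array by array, the subgroups did not share one profile. Within same-numbered pairs 1, 2 and 3, the median miR-9 LNA minus scrambled difference was 0.33, 0.19 and 0.071 for hnRNP genes and 0.39, 0.099 and 0.086 for SR genes. It was 0.17, 0.16 and 0.16 for SF3A and SF3B, 0.23, 0.14 and 0.13 for PRPF genes and 0.33, -0.023 and -0.013 for snRNP polypeptides. The brightest 20% of tested genes gave 0.40, 0.091 and 0.10. In these deposited values the SF3A and SF3B medians were close to each other over the pairs, whereas for snRNP polypeptides pair 1, which holds scrambled replicate 1, was the pair with a positive median. Higher in all 3 pairs were 38 of 60 members, among them 16 of 19 hnRNP symbols, 7 of 9 SR genes, 5 of 9 SF3A and SF3B subunits, 8 of 11 PRPF genes and 2 of 12 snRNP symbols, where 44.9% of all tested genes and 69% of the brightest 20% were. Without scrambled replicate 1 the subgroup medians were 0.15 for hnRNP genes, 0.11 for SR genes, 0.16 for SF3A and SF3B, 0.14 for PRPF genes and 0.039 for snRNP polypeptides. After quantile normalization the medians within pairs were -0.042, -0.087 and -0.079 for snRNP polypeptides and -0.12, 0.077 and 0.049 for SF3A and SF3B, pair 1 being the lowest of the latter. They were -0.060, 0.14 and 0.031 for hnRNP genes, 0.0078, 0.043 and 0.012 for SR genes and -0.012, 0.062 and 0.054 for PRPF genes. These differences between subgroups were not tested.

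**Figure D4:**
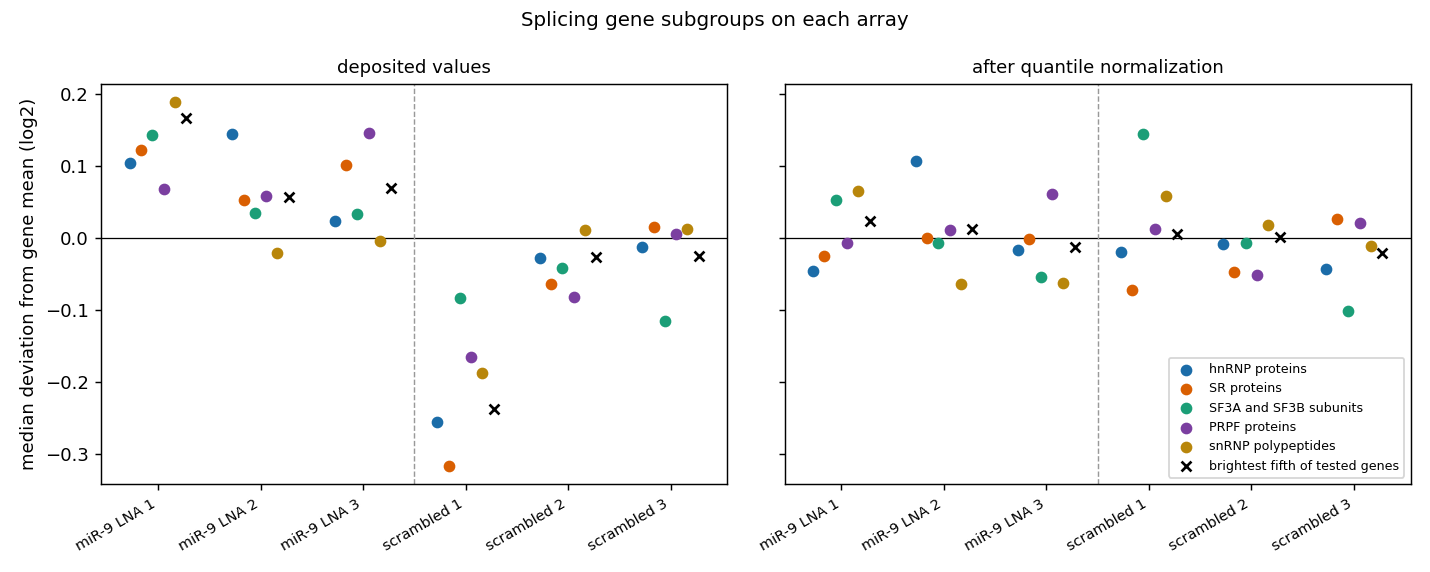
Median deviation of each subgroup's tested genes from their own mean over the 6 arrays (y, log2) on each array (x), in deposited values (left) and after quantile normalization (right), with the brightest 20% of tested genes as crosses. In deposited values scrambled array 1 is below 0 for each subgroup, down to -0.32 for SR genes, and snRNP polypeptides are highest on miR-9 LNA array 1 at 0.19 and between -0.022 and 0.012 on the 4 arrays numbered 2 and 3.

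Most members were read by more than one probe set, and these did not always give the same difference. The members had 169 probe sets, of which 148 were tested, 130 higher and 18 lower. Of 40 members with several tested probe sets, 27 had all of them higher, and for no member did probe sets of opposite direction both have an unadjusted limma p under 0.05 or differ by over 0.5. The genes of this paragraph were chosen after their values were seen. HNRNPA2B1, a partner of HNRNPA1 in the core of hnRNP particles, differed by 0.20 ± 0.12 at its brightest probe set and by 0.37 ± 0.065 at a dimmer one (limma adjusted p = 0.296). That HNRNPA2B1 probe set was at 9.71, 9.77 and 9.81 on miR-9 LNA arrays 1, 2 and 3 and at 9.33, 9.39 and 9.47 on scrambled arrays 1, 2 and 3, with separate groups. The other HNRNPUL1 probe set was lower, at 8.55, 8.51 and 8.49 on miR-9 LNA arrays 1, 2 and 3 and at 8.90, 8.80 and 8.65 on scrambled arrays 1, 2 and 3. Its difference of -0.26 ± 0.076 (limma adjusted p = 0.296) had the smallest p of any member probe set in the lower direction, whereas the brightest HNRNPUL1 probe set was at -0.029 ± 0.067. For PRPF4 the other probe set gave 0.071 ± 0.20 with a wide spread, at 9.62, 9.41 and 9.60 on miR-9 LNA arrays 1, 2 and 3 and at 8.97, 9.69 and 9.76 on scrambled arrays 1, 2 and 3. On it the PRPF4 groups overlapped. Scrambled array 1 was its lowest array, whereas scrambled arrays 2 and 3 lay above all miR-9 LNA arrays, and after quantile normalization its difference was -0.077. The PRPF4 difference above thus rests on a single probe set. A dimmer probe set of SNRPE and one of SRSF11 gave 0.52 ± 0.23 and -0.30 ± 0.26, against 0.16 ± 0.12 and 0.14 ± 0.069 at the brightest ones. That SNRPE probe set was at 8.81 on scrambled array 1, far below the 9.72 and 9.69 on scrambled arrays 2 and 3. The tested probe sets of SRSF5 gave 0.35 ± 0.11 and 0.32 ± 0.073, those of HNRNPA3 0.24 to 0.32, those of SF3A1 0.12 to 0.23 and the 5 of HNRNPDL 0.21 to 0.36. Other named members varied more over their tested probe sets, HNRNPA0 from 0.062 to 0.31 and SF3B1 from 0.028 to 0.30. PRPF38B ran from -0.064 to 0.27 and HNRNPU from -0.12 to 0.28. For 8 of 60 tested members, HNRNPU, HNRNPA1, HNRNPC, HNRNPDL, SRSF7, SRSF8, SF3B1 and SF3B4, the brightest probe set ends in _x_at, a mark of probes that can also bind other transcripts.

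The other genes of splicing, taken from 9 lists by function, also lay mostly higher, and 0 genes of any list passed the limma threshold. Among U2 and branch point factors 11 of 12 lay higher, with a median of 0.24 and 5 at an unadjusted limma p under 0.05. U2SURP, a U2-associated SR-like protein, differed by 0.42 ± 0.088 and HTATSF1, a factor that binds U2, by 0.26 ± 0.089. Among partners of the U4/U6.U5 and U1 particles 15 of 16 lay higher, with a median of 0.16 and 4 at that p, where USP39 (0.23 ± 0.061) and the GTPase EFTUD2 (0.19 ± 0.062) had the smallest p. All 23 genes of the PRP19 complex and the catalytic steps lay higher, with a median of 0.18 and 9 at that p. SLU7, which acts in exon joining, differed by 0.32 ± 0.070 and SNW1 by 0.28 ± 0.063. The LSm proteins, relatives of the Sm ring that bind U6 and mRNAs in decay, lay higher in 8 of 9, with a median of 0.12 and 0 at that p, LSM3 at 0.26 ± 0.12 and LSM5 at 0.15 ± 0.088, the latter 0.078 without scrambled array 1. After quantile normalization 8 of 9 LSm genes lay lower, with a median of -0.071, as did the snRNP polypeptides above. Minor spliceosome proteins, which remove a rare class of introns, lay higher in 7 of 8, with a median of 0.069 and 1 at that p, RNPC3 at 0.23 ± 0.065 and SNRNP35 at 0.15 ± 0.093.

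SR-related proteins and the kinases of SR proteins lay higher in 16 of 20, with a median of 0.15 and 6 at an unadjusted limma p under 0.05. SRPK1, the kinase that sends SR proteins into the nucleus, was at 11.16, 11.11 and 11.11 on miR-9 LNA arrays 1, 2 and 3 and at 10.68, 10.88 and 10.82 on scrambled arrays 1, 2 and 3. Its groups were separate, with a difference of 0.33 ± 0.069 (limma adjusted p = 0.296), or 0.14 after quantile normalization. The nuclear speckle protein SON differed by 0.28 ± 0.080. SRRM2, a large speckle protein chosen after its value was seen, lay lower by a like amount, at 10.15, 9.78 and 9.80 on miR-9 LNA arrays 1, 2 and 3 and at 9.67, 10.58 and 10.47 on scrambled arrays 1, 2 and 3. Scrambled array 1 was the lowest for SRRM2, and its difference of -0.33 ± 0.23 (limma adjusted p = 0.522) was -0.62 without that array and -0.50 after quantile normalization. Splicing regulators outside the SR and hnRNP symbols lay higher in 24 of 26, with a median of 0.20 and 12 at that p. PTBP2, a repressor of exons best known in neurons, differed by 0.30 ± 0.066 and TARDBP (TDP-43) by 0.30 ± 0.073. The 4 tested genes of the exon junction complex, which marks joined exons, had a median of 0.16 with 4 of 4 higher and 2 at that p, RBM8A at 0.24 ± 0.087 and EIF4A3 at 0.23 ± 0.087, or 0.15 and 0.14 without scrambled array 1. Genes that assemble Sm rings, the SMN complex and PRMT5 among them, lay higher in 14 of 14, with a median of 0.18 and 6 at that p. The Cajal body protein COIL differed by 0.31 ± 0.073 and GEMIN5, which recognises small nuclear RNAs, by 0.29 ± 0.077. After quantile normalization the genes higher were 10 of 12 U2 factors, 8 of 16 U4/U6.U5 and U1 partners, 14 of 23 PRP19 and catalytic genes, 2 of 8 minor spliceosome genes, 8 of 20 SR-related genes, 19 of 26 regulators, 2 of 4 exon junction genes and 8 of 14 Sm assembly genes. Among all tested genes 70% lay higher in deposited values and 49.8% after quantile normalization, and in the brightest 20% of them 96.5% and 57.7%. In deposited values 17.4% of all tested genes and 33.3% of the brightest 20% lay higher at an unadjusted limma p under 0.05. Whether the lists differed from other genes was not tested. ELAVL1 (HuR) and DICER1, which the series title names, differed by 0.24 ± 0.11 and -0.16 ± 0.23 at their brightest probe sets, by 0.19 and -0.40 without scrambled array 1, and by 0.041 and -0.35 after quantile normalization.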

How the data were processed

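Per the labels, total RNA of each of 6 L428 samples was labelled and read on 1 Affymetrix array (HG-U133 Plus 2.0). The authors deposited log2 expression values for 54675 probe sets, and the submitters' processing notes name affy and RMA. Versions, options and any offset are not given in the sources used here, and the lowest value lay near 6 on each array, which can shrink the differences of weakly expressed members. Over the 6 arrays the medians ran from 7.10 to 7.15 and the 90th percentiles from 9.29 to 9.58. The deposited values were thus not on the single distribution that quantile normalization of these arrays gives. No genome build applies to these values. The number of arrays limits the precision.

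After 62 control probe sets were left out, the 27307 probe sets with a mean at or above the median (7.11) entered a two-sided moderated test, lmFit followed by eBayes (limma 3.58.1, R 4.3.3), and p-values were adjusted over all of them by Benjamini and Hochberg's method. Each gene was read at its brightest probe set with a single symbol in the platform annotation. Values of members under the filter come from a fit without it. The named members are, per subgroup, the 3 of smallest p higher, the 1 lower and the brightest, then over all members the 5 largest positive and 3 largest negative differences and any whose probe sets disagree, and 2 genes per list; the other members are given so that all are accounted for. The members, lists and motifs were chosen with earlier results of these data known. Deviations from group means correlated at r = 0.231, 0.193 and 0.634 between same-numbered arrays and -0.429 to 0.168 between others. These correlations depend on each other, since the deviations are taken from group means. The labels do not state what same-numbered samples share, and whether they are paired was not tested. Alternatives covered normalization, the level filter, the choice of probe set, the variance model, the replicate block and each array left out. Sequences come from RefSeq (GRCh38.p14). The scripts were tested on simulated arrays. Figures were drawn with matplotlib 3.10.9.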

Additional observations from a re-analysis of the deposited data

How the results depend on the processing

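No member passed the limma threshold under any of 16 other settings or the 1 added after seeing the data, and the lowest adjusted p of a member ranged from 0.121 (array weights) to 0.899 (quantile normalization). The 20 members higher at an unadjusted limma p under 0.05 became 1 after quantile normalization, 9 with an intensity trend and robust variances, 12 with the mean over tested probe sets, and 2 with quantile normalization and the replicate block, the added setting. In the same order the share of all tested genes, 17.4% in the reported fit, became 1.92%, 12.5%, 14.1% and 5.52%. Leaving out each array gave 10 to 20, where 9.45% to 18.5% of all tested genes lay higher at that p. With the replicate block alone limma gave 29 of 60, against 25.9% of all tested genes, and 0 past the threshold, and the block changed no call. The members' median difference was 0.016 after quantile normalization, with or without the block, and 0.12 to 0.20 when each array was left out. SRSF8 turned to -0.047 and SF3A1 to -0.023 after quantile normalization, with or without the block. Of 436 values of the 26 named members under alternatives, 416 kept their direction and side of the threshold, and the other 20 turned sign. The median of all tested genes moved from 0.083 to -0.00050 with quantile normalization. The causes of these changes were not tested. Signal over background limits the dim members, among them PRPF40B, SNRPF-DT and HNRNPD-DT.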
